A study of Mus musculus with 24 samples.

Results

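Hippocampal mRNA of adult female Fkbp5lox/lox mice reared under early life stress (ELS) was compared with that of Fkbp5lox/lox mice reared under control conditions. The comparison holds 12 of the 24 mice sequenced, 6 in each rearing condition, taken by the genotype and treatment given in the sample labels. All 12 were C57BL/6 littermate wild types of the Cre line: both copies of *Fkbp5* are flanked by loxP sites and, with no Cre present, stay intact. ELS litters and their dams were kept with little bedding and nesting material during early postnatal life, whereas control litters had the standard amount. Dams and whole litters were assigned to a condition together, and the labels do not say which mice share a litter, so p-values measure the spread between these mice and some of them may be siblings. Each library came from punches that pool dorsal and ventral hippocampus of 1 mouse, and a read count therefore sums over all cells in the punch. The other 12 mice, 6 control and 6 ELS, were Fkbp5Nex mice, in which Cre driven by the *Nex* gene deletes *Fkbp5* in glutamatergic forebrain neurons.

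Limited bedding and nesting leads to fragmented maternal care and is a common rodent model of early adversity. The hippocampus carries high levels of the receptors for corticosterone, and its cornu ammonis (CA) fields, dentate gyrus and interneurons each have marker genes by which a punch can be described. *Fkbp5* encodes FKBP51, a co-chaperone that lowers the affinity of the glucocorticoid receptor for its ligand and is itself induced by that receptor.

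Between 18347283 and 26555623 reads were counted per mouse, from 21421401 to 24050489 in controls, and total counts did not differ between the rearing conditions (exact two-sided permutation test, p = 0.887, n = 6 and 6). *Fkbp5* was measured at 47.7 to 63.4 CPM (TMM-normalized read counts scaled to 1000000 reads) in the 12 Fkbp5lox/lox mice and at 8.71 to 26.5 CPM in the Fkbp5Nex mice, so every library matched its genotype label. Several punches stood apart in what they contained. Control mouse 44 had the highest summed level of CA1 pyramidal markers (846 CPM against 278 to 463 CPM in the other controls) and the lowest of CA3 markers (206 CPM against 398 to 481 CPM). ELS mouse 8 had the lowest CA1 level (102 CPM) and the highest dentate granule cell level (1476 CPM against 441 to 764 CPM in the other ELS mice). ELS mice 8 and 78 had the highest levels of thalamic markers, 865 and 823 CPM against 401 to 563 CPM in the other 10 mice. For the CA3, CA1 and oxidative phosphorylation lists and the CA3 genes, values without control mouse 44 stand beside the main ones. For the dentate, CA1, choroid plexus, oligodendrocyte, hub, thalamic, cholesterol and ribosomal lists, values without ELS mice 8 and 78 do so.

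No gene differed between ELS and control Fkbp5lox/lox mice at a false discovery rate (FDR) below 0.02 in edgeR's quasi-likelihood test. The count was 0 of 16209 tested genes (0.0%), in a model of all 24 mice that held the 4 group means together with 5 surrogate variables, which are factors estimated from the counts to absorb variation between mice. The smallest adjusted p was 0.545, for *Bok*. At an unadjusted p under 0.05 there were 807 genes (4.98%), of which 455 (2.81%) were higher and 352 (2.17%) lower after ELS. DESeq2's Wald test with the same surrogate variables called 1 gene, *Bok*, at an adjusted p of 0.0138. In the 12 Fkbp5lox/lox mice alone and without surrogate variables, edgeR again called 0 genes, with 582 (3.59%) at an unadjusted p under 0.05.

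The differences were small. The median absolute log2 fold change over all tested genes was 0.062, the 95th percentile was 0.33, and 10 genes exceeded 1 on the log2 scale in either direction. The median standard error (SE) of a log2 fold change was 0.083. ELS explained from 2.71% to 17.9% of the variance of the single surrogate variables among the 12 mice.

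**Figure D1:**
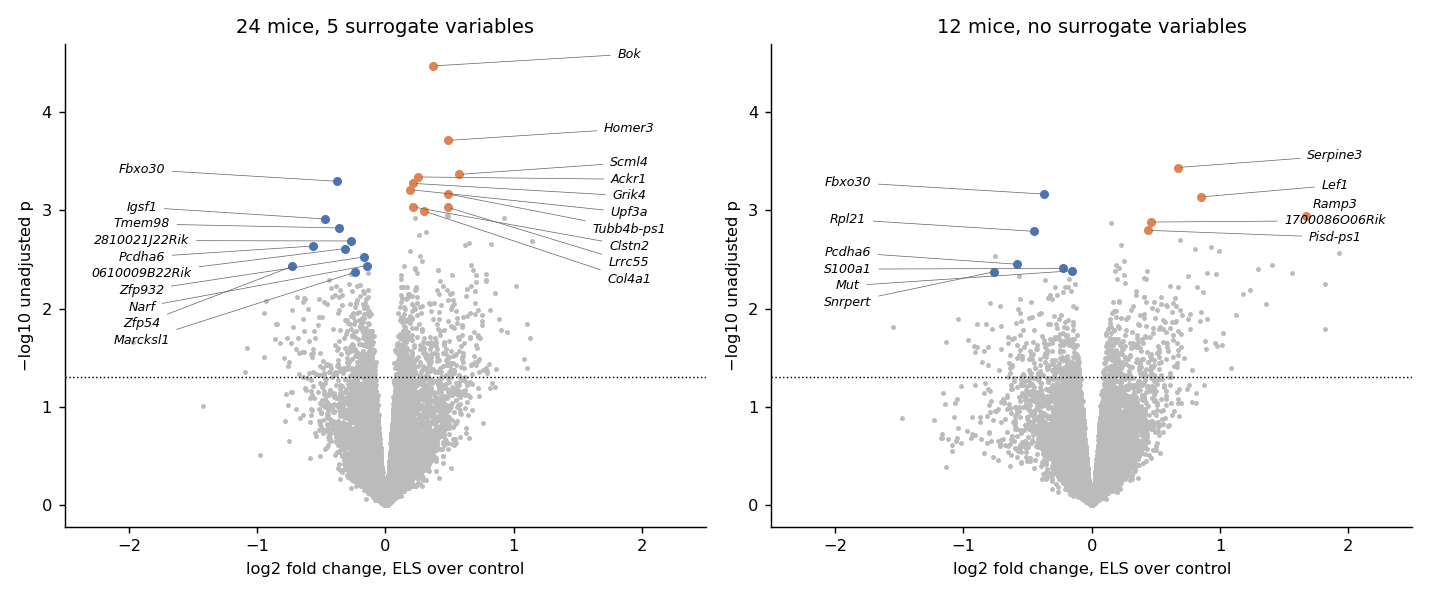
Each point is 1 of 16209 tested genes, with the log2 fold change of ELS over control Fkbp5lox/lox mice on the x axis and the −log10 of the unadjusted p on the y axis, in the fit of 24 mice with 5 surrogate variables (left) and of the 12 mice without them (right). Orange and blue points are named genes with higher and lower values after ELS, the dotted line is the unadjusted threshold, and *Bok* stands highest at the left.

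Among genes with a mean of at least 1 CPM, the 10 with the smallest p and higher values after ELS were *Bok*, *Homer3*, *Scml4*, *Ackr1*, *Grik4*, *Upf3a*, *Tubb4b-ps1*, *Clstn2*, *Lrrc55* and *Col4a1*. They include genes of CA3 pyramidal neurons and of the synapse. None passed the FDR in edgeR's test, and their fold changes ran from 1.14 for *Upf3a* to 1.49 for *Scml4*.

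*Bok* (ENSMUSG00000026278; chromosome 1 from 93685660 to 93695764 in GRCm38, GENCODE vM21) encodes a member of the BCL-2 family of apoptosis regulators and marks CA3. It was measured at 23.3 to 80.0 CPM in controls with a median of 61.5, and at 43.0 to 85.1 CPM with a median of 79.2 after ELS. The groups overlapped, and in each the lowest value belonged to the mouse with the lowest CA3 marker level, control mouse 44 and ELS mouse 68. That level is a sum that includes *Bok* itself. The log2 fold change was 0.37 (SE 0.071, unadjusted p = 3.36e-05, edgeR adjusted p = 0.545). Without surrogate variables, in the 12 mice alone, it was 0.28 (SE 0.23, edgeR unadjusted p = 0.246). Leaving out control mouse 44, it was 0.27 (SE 0.086) with surrogate variables and 0.12 (SE 0.16) in the remaining 11 mice without them.

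*Homer3*, a scaffold protein of the postsynaptic density, ranged from 19.0 to 50.4 CPM with a median of 40.8 in controls and from 36.0 to 68.0 CPM with a median of 49.2 after ELS. Its lowest values were again in control mouse 44 and ELS mouse 68, and 3 ELS mice lay above all controls. The log2 fold change was 0.49 (SE 0.11, edgeR unadjusted p = 0.000193, adjusted p = 0.938), and in the 12 mice without surrogate variables it was 0.36 (SE 0.20, edgeR unadjusted p = 0.0972). Leaving out control mouse 44 gave 0.40 with and 0.22 without surrogate variables. *Homer3* overlaps *Ddx49* on the opposite strand, and strand use in counting is not given in the sources used here, so its count is uncertain.

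*Grik4*, a kainate receptor subunit enriched in CA3, was at 58.9 to 106.5 CPM in controls and 77.4 to 114.9 CPM after ELS, with medians of 98.1 and 100.2 CPM that almost coincided. Its log2 fold change of 0.21 (SE 0.052, edgeR adjusted p = 0.938) was 0.096 without surrogate variables, and without control mouse 44 the values were 0.185 and -0.004. *Clstn2*, which encodes the synaptic membrane protein calsyntenin 2, was at 123 to 188 CPM in controls and 164 to 196 CPM after ELS. Its medians were 161.5 and 183 CPM, the lowest value being that of control mouse 44, and the log2 fold change was 0.21 (SE 0.056) with and 0.20 (SE 0.090) without surrogate variables, or 0.19 and 0.14 without control mouse 44. *Upf3a*, a factor of nonsense-mediated decay, was at 34.0 to 38.2 CPM in controls and 36.3 to 43.7 CPM after ELS, with 4 ELS mice above all controls. *Scml4*, a Polycomb group relative, was at 6.30 to 8.93 CPM in controls and 8.80 to 13.3 CPM after ELS, with a small overlap between the groups.

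*Lrrc55*, a subunit that tunes calcium-activated potassium channels, had medians of 8.26 CPM in controls and 10.4 CPM after ELS, and *Col4a1*, a basement membrane collagen of vessels that overlaps *Col4a2* on the opposite strand, had medians of 59.8 and 70.3 CPM. Both had overlapping groups, and their log2 fold changes of 0.48 and 0.30 were 0.26 and 0.14 without surrogate variables. *Ackr1* overlaps *Cadm3* on the same strand and *Tubb4b-ps1* is a pseudogene related to tubulin genes, so reads counted for either may come from another gene. Their log2 fold changes were 0.25 and 0.48.

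The 10 genes with the smallest p and lower values after ELS were *Fbxo30*, *Igsf1*, *Tmem98*, *2810021J22Rik*, *Pcdha6*, *0610009B22Rik*, *Zfp932*, *Narf*, *Zfp54* and *Marcksl1*. They are of diverse function, and 2 of them, *Igsf1* and *Marcksl1*, had the opposite sign without surrogate variables. None passed the FDR in edgeR's test.

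*Fbxo30* (ENSMUSG00000047648; chromosome 10 from 11281330 to 11298052), a subunit of a ubiquitin ligase, was at 8.33 to 10.3 CPM in controls with a median of 9.73, and at 6.55 to 8.22 CPM with a median of 7.44 after ELS. The groups did not overlap. The log2 fold change was -0.38 (SE 0.093, edgeR unadjusted p = 0.000503, adjusted p = 0.938) and nearly the same, -0.37 (SE 0.086), without surrogate variables. It was the gene with the smallest p among lower genes in both fits.

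*Igsf1*, an immunoglobulin superfamily membrane protein, was at 9.78 to 13.3 CPM in controls and 8.05 to 23.7 CPM after ELS. ELS mice 8 and 78 were at 23.7 and 15.8 CPM, above all controls, and the other 4 ELS mice were below the lowest control. The log2 fold change was -0.47 with surrogate variables and 0.074 in the 12 mice without them, and -0.43 without surrogate variables and without ELS mice 8 and 78. *Marcksl1*, a regulator of actin in neurites, was at 56.9 to 92.8 CPM in controls and 47.6 to 114 CPM after ELS, with ELS mouse 8 highest. Its log2 fold change was -0.24 with and 0.052 without surrogate variables.

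*Tmem98*, a membrane protein that restrains the myelin regulator MYRF, was at 6.30 to 19.1 CPM in controls and 6.11 to 9.24 CPM after ELS. Controls 50 and 74 were at 16.5 and 19.1 CPM and the other 4 controls lay within the ELS range. These 2 mice also had the highest oligodendrocyte marker levels of the controls (5117 and 5487 CPM), and the 2 highest choroid plexus levels, and the part of either in the difference was not tested. *Narf* was at 58.7 to 65.2 CPM in controls and 52.0 to 58.8 CPM after ELS, where 2 ELS mice lay just above the lowest control, and its log2 fold change was -0.15 (SE 0.045). *Zfp932*, *Zfp54* and the 2 Riken transcripts differed by log2 fold changes from -0.72 to -0.17. *Pcdha6* shares its last exons with the other protocadherin alpha genes, so reads cannot be assigned to it alone, and its 23 to 55 reads per mouse gave a log2 fold change of -0.57.

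Without surrogate variables, the 12 mice alone gave *Serpine3*, *Lef1*, *Ramp3*, *1700086O06Rik* and *Pisd-ps1* among the higher genes with the smallest p and *Fbxo30*, *Rpl21*, *S100a1*, *Mut*, *Snrpert* and *Pcdha6* as the lower ones. *Lef1*, a transcription factor, and *Ramp3*, a receptor activity modifying protein, are both in the list of thalamic markers. *Ramp3* was at 1.34 to 3.24 CPM in controls and 1.73 to 11.6 CPM after ELS, and its log2 fold change of 1.67 (SE 0.41) without surrogate variables was 0.62 (SE 0.32) with them and 0.92 without ELS mice 8 and 78 and without surrogate variables. *Lef1* was at 1.97 to 3.63 CPM in controls and 2.84 to 6.06 CPM after ELS, with log2 fold changes of 0.85 and 0.51 without and with surrogate variables. *S100a1*, a calcium-binding protein, was at 39.3 to 50.1 CPM in controls and 36.0 to 40.9 CPM after ELS, a log2 fold change of -0.22 (SE 0.065). *Mut*, the mitochondrial methylmalonyl-CoA mutase, was at 47.0 to 52.3 CPM in controls and 41.4 to 47.7 CPM after ELS, a log2 fold change of -0.16 (SE 0.046) with a narrow overlap. *Pisd-ps1* and *Snrpert* resemble other genes and their log2 fold changes of 0.44 and -0.76 are uncertain for that reason.

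**Figure D2:**
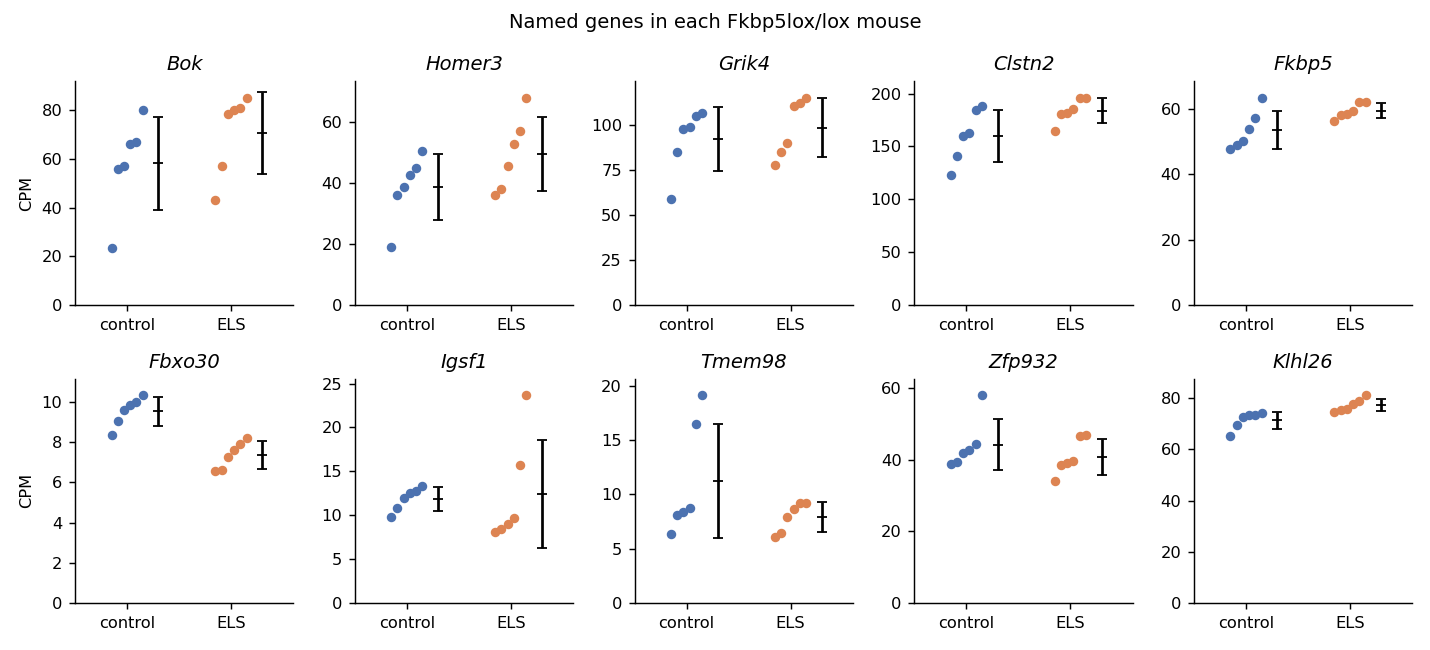
CPM of 10 named genes in each Fkbp5lox/lox mouse, controls in blue and ELS in orange, 6 points a group sorted by value, with the mean and SD in black and axes from 0. *Fbxo30* and *Klhl26* have groups that do not overlap, *Bok*, *Homer3* and *Grik4* each have a single low control, and *Igsf1* has 2 high ELS mice.

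Complete separation of the groups was rare. With random labels, 6 mice against 6 separate fully with a probability of 0.00216, the smallest p of an exact two-sided permutation test. Of 16209 genes, 15 (0.0925%) had every ELS mouse on one side of every control mouse, a smaller share than that. Separation alone thus does not mark a gene as changed. Of the 15 genes, 9 (0.0555%) were higher and 6 (0.037%) lower after ELS. Those named here beyond *Fbxo30*, *Serpine3* and *1700086O06Rik* were chosen after their values were seen. *Klhl26*, an adaptor of a ubiquitin ligase, was at 65.2 to 74.1 CPM in controls and 74.7 to 81.2 CPM after ELS, a log2 fold change of 0.12 (SE 0.039, edgeR adjusted p = 0.938). Its ranges nearly touched. *Serpine3*, a serine protease inhibitor, was at 0.929 to 1.26 CPM in controls and 1.42 to 2.04 CPM after ELS, which rests on 21 to 55 reads per mouse, and it overlaps *Ints6* on the opposite strand.

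Among the lower genes, *Ift80*, needed to build cilia, was at 41.4 to 44.3 CPM in controls and 37.2 to 40.9 CPM after ELS, and *Glod4*, a glyoxalase domain protein, was at 46.4 to 51.8 CPM and 42.4 to 45.7 CPM. Their log2 fold changes were -0.13 (SE 0.048) and -0.14 (SE 0.046), and *Glod4* overlaps *Vps53* on the same strand. Other members were *Phkb*, *Zbtb8os* and *Gm4332* among lower genes and *Fmo2*, *Gm9785*, *Cacng6*, *Cyp4x1os* and *9330175M20Rik* among higher ones. In 6 of the 15 genes no mouse had 60 reads or more. In the fit with surrogate variables 9 of the 15 had an unadjusted p under 0.05 and none passed the FDR, and in Fkbp5Nex mice the rearing groups overlapped for all 15.

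The punches were then described by marker lists. In bulk tissue, fewer cells of a type and less RNA per cell cannot be told apart. CA3 markers had higher values after ELS in the fit with surrogate variables. Of 6 tested, 6 had a log2 fold change above 0, against 51.2% of all tested genes, 2 of them (*Bok* and *Grik4*) at an unadjusted p under 0.05, and the median was 0.18 against 0.003 over all genes. Their summed level was 205.5 to 481 CPM in controls and 288 to 526 CPM after ELS, so the groups overlapped. In the 12 mice without surrogate variables 5 of 6 were above 0, with a median of 0.11. Without control mouse 44 the fit with surrogate variables gave 6 of 6 above 0 and a median of 0.17, whereas the 11 mice without surrogate variables gave 3 of 6 and a median of 0.016. Without surrogate variables the lean of the CA3 list toward higher values thus depended on control mouse 44. *Iyd*, an iodotyrosine deiodinase and CA3 marker, was at 1.96 to 6.08 CPM in controls and 3.89 to 6.86 CPM after ELS, a log2 fold change of 0.41 (SE 0.20). In the 12 mice without surrogate variables it was 0.37 (SE 0.21). Without control mouse 44 it was 0.35 with and 0.22 without surrogate variables. *Bok* and *Grik4* are members of this list, so their moving with it is partly built in and is no separate observation. *Homer3*, which is not a member, also had a smaller log2 fold change without control mouse 44. How far these genes reflect the CA3 content of the punch was not tested.

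Dentate granule cell markers changed direction between fits. With surrogate variables 10 of 11 were lower after ELS, against 48.8% of all genes, with a median log2 fold change of -0.23 and 2 genes (*Npnt* and *Plk5*) at an unadjusted p under 0.05. In the 12 mice without surrogate variables 11 of 11 were higher, against 49.7% of all genes, with a median of 0.27. Leaving out ELS mice 8 and 78 from the latter fit gave 10 of 11 lower and a median of -0.22. *Plk5* was at 12.0 to 21.4 CPM in controls, at 48.4 CPM in ELS mouse 8 and at 3.92 to 19.7 CPM in the other ELS mice. *Npnt*, an extracellular matrix protein, was at 16.9 to 39.7 CPM in controls and 11.4 to 66.3 CPM after ELS. Without surrogate variables the direction of the dentate list thus depended on ELS mice 8 and 78.

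The direction of the CA1 markers also depended on the fit. Their median log2 fold change was 0.050 with surrogate variables and -0.31 in the 12 mice without them. Without ELS mice 8 and 78 these became -0.049 and 0.057, and without control mouse 44 they became -0.058 and -0.15. No member of the CA1 list had an unadjusted p under 0.05 in these fits. Choroid plexus markers had the widest range of the lists examined. Of 14 members 7 passed the filter, and the summed level, led by *Ttr*, the thyroxine carrier that choroid plexus secretes, ran from 28.3 to 4867 CPM in controls and from 33.3 to 1569 CPM after ELS. With surrogate variables 6 of the 7 had higher values after ELS and the median log2 fold change was 0.082. In the 12 mice without surrogate variables 0 of 7 were higher and the median was -1.05, and it was -0.56 when ELS mice 8 and 78 were also left out. The direction of this list thus turned with the surrogate variables.

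Oligodendrocyte markers were lower for 10 of 10 genes with surrogate variables, against 48.8% of all genes. The median was -0.14, with 0 at an unadjusted p under 0.05. The summed level of these markers was 1512 to 5487 CPM in controls and 1603 to 4740 CPM after ELS. In the 12 mice without surrogate variables 9 of 10 were lower, against 50.3% of all genes. The median was then -0.047, with 0 at an unadjusted p under 0.05. ELS mouse 78 had the highest summed level of the ELS group, 4740 CPM, so leaving it out lowers the ELS values. Without ELS mice 8 and 78 the fit with surrogate variables gave 9 of the 10 lower at an unadjusted p under 0.05. Of all 16209 genes 480 were lower at that p in this fit. The list had a median of -0.35 there and 0 past the FDR in edgeR's test. The remaining 10 mice without surrogate variables gave a median of -0.17 and 0 at that p.

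Microglial markers had summed levels of 322 to 427.5 CPM in controls, where mouse 50 was lowest, and 338 to 384 CPM after ELS. Of 10 members 7 were lower with surrogate variables, with a median of -0.049, and 10 of 10 were lower without them, with a median of -0.13 and 3 at an unadjusted p under 0.05, against 50.3% of all genes lower and 1.6% lower at that p. *Aif1*, which encodes the microglial protein IBA1, was at 4.03 to 7.29 CPM in controls and 3.67 to 4.86 CPM after ELS, a log2 fold change of -0.27 (SE 0.11). Mural and meningeal markers were higher for 8 of 10 with surrogate variables, against 51.2% of all genes, with 2 higher and 1 lower at an unadjusted p under 0.05 and a median of 0.29. Without surrogate variables, in the 12 mice, 7 of 10 were higher, 0 of them at that p, with a median of 0.12. Within this list, *Lum*, a collagen-binding proteoglycan of meningeal fibroblasts, was lower, at 7.39 to 11.7 CPM in controls and 4.54 to 8.55 CPM after ELS (log2 fold change -0.52, SE 0.18). Markers of astrocytes, interneurons and neocortex had medians between -0.029 and -0.003.

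**Figure D3:**
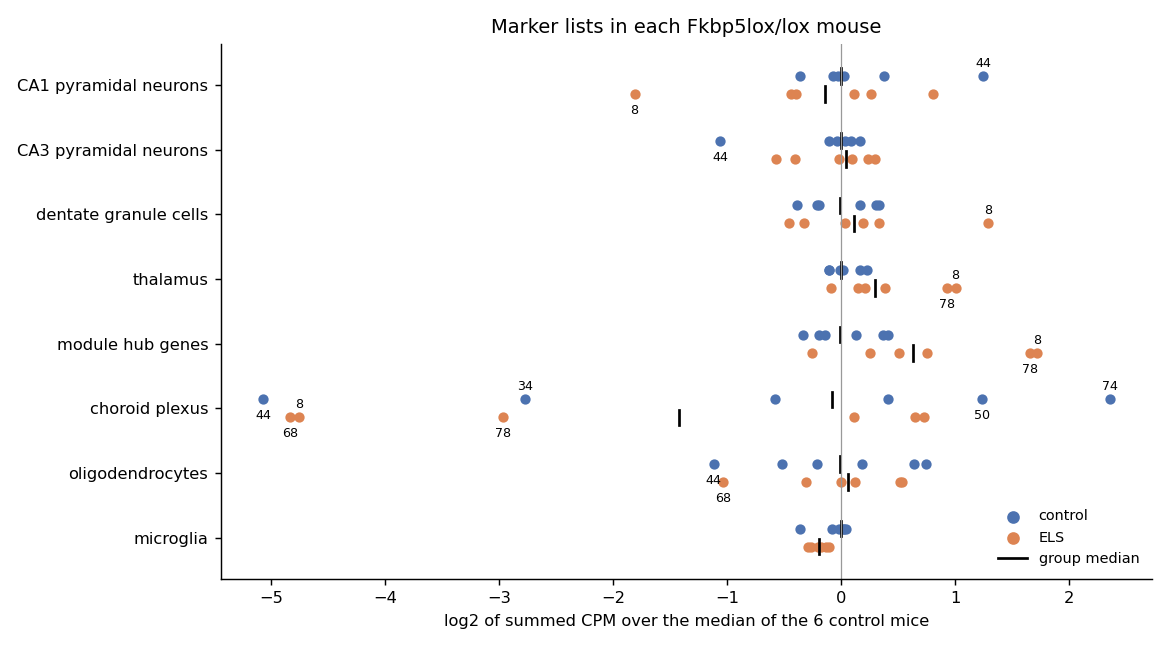
Summed CPM of 8 marker lists in each Fkbp5lox/lox mouse, as log2 of the ratio to the median of the 6 controls, controls in blue and ELS in orange, with a black bar at each group median and mouse numbers beside values beyond 0.9 in either direction. Control 44 stands apart in CA1 and CA3, ELS mouse 8 in CA1 and dentate, ELS mice 8 and 78 in thalamus and hub genes, and the choroid plexus list spans the widest range.

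*Tcf7l2*, *Zic1*, *Plcb4*, *Plekhg1* and *Rab37* are the hub genes that the study named for a co-expression module, chosen on these same samples, so their direction is no independent evidence. All 5 had higher values after ELS in both fits of Fkbp5lox/lox mice, 0 of 5 at an unadjusted p under 0.05 with surrogate variables and 5 of 5 without them. The median log2 fold change was 0.19 with surrogate variables and 0.98 in the 12 mice without them. Their summed level was 48.7 to 81.8 CPM in controls, 202 and 193 CPM in ELS mice 8 and 78, and 51.4 to 104 CPM in the other 4 ELS mice.

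*Tcf7l2* (ENSMUSG00000024985; chromosome 19 from 55741820 to 55933654), a Wnt pathway transcription factor that is strongly expressed in thalamus, was at 5.25 to 11.4 CPM in controls with a median of 6.33, and at 5.41 to 36.1 CPM with a median of 12.5 after ELS. *Zic1*, a zinc finger transcription factor, was at 6.81 to 16.02 CPM in controls and 8.11 to 46.4 CPM after ELS. ELS mice 8 and 78 were the 2 highest mice for both genes, and ELS mouse 68 lay within the control range for both. In the 12 mice without surrogate variables the log2 fold changes were 1.13 (SE 0.39) and 1.18 (SE 0.37). Leaving out ELS mice 8 and 78, they were 0.36 and 0.54.

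*Plcb4*, a phospholipase downstream of G proteins, had log2 fold changes of 0.63 with all 12 mice and 0.21 without ELS mice 8 and 78. *Plekhg1*, a guanine nucleotide exchange factor, went from 0.85 to 0.24, and *Rab37*, a vesicle GTPase, from 0.98 to 0.24. All 5 genes kept values above 0 without these 2 mice, and 0 of 5 then had an unadjusted p under 0.05. With the mean level of the thalamic markers as a covariate in the 12 mice, the log2 fold changes were -0.11 for *Tcf7l2*, 0.058 for *Zic1*, -0.008 for *Plcb4*, -0.082 for *Plekhg1* and -0.22 for *Rab37*.

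Thalamic markers moved in the same mice. Of 14 listed genes 12 were tested, and in the 12 mice without surrogate variables 12 of 12 were higher after ELS, 9 at an unadjusted p under 0.05 where 1.99% of all genes were, with a median log2 fold change of 0.87. Without ELS mice 8 and 78 this became 11 of 12 higher, 3 at an unadjusted p under 0.05, with a median of 0.25. With surrogate variables 10 of 12 were higher, 2 at an unadjusted p under 0.05, with a median of 0.14. *Prkcd*, a protein kinase C that labels thalamic relay neurons, was at 12.2 to 29.8 CPM in controls, at 98.5 and 109 CPM in ELS mice 8 and 78, and at 13.7 to 42.1 CPM in the other ELS mice. *Slc17a6*, the vesicular glutamate transporter of thalamic neurons, was at 1.84 to 11.2 CPM in controls, at 46.5 and 37.5 CPM in the same 2 mice and at 5.46 to 9.80 CPM in the rest, all within the control range. *Tcf4*, a transcription factor that the study also named, was at 459 to 594 CPM in controls and 491 to 517 CPM after ELS, a log2 fold change of -0.020 (SE 0.045).

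**Figure D4:**
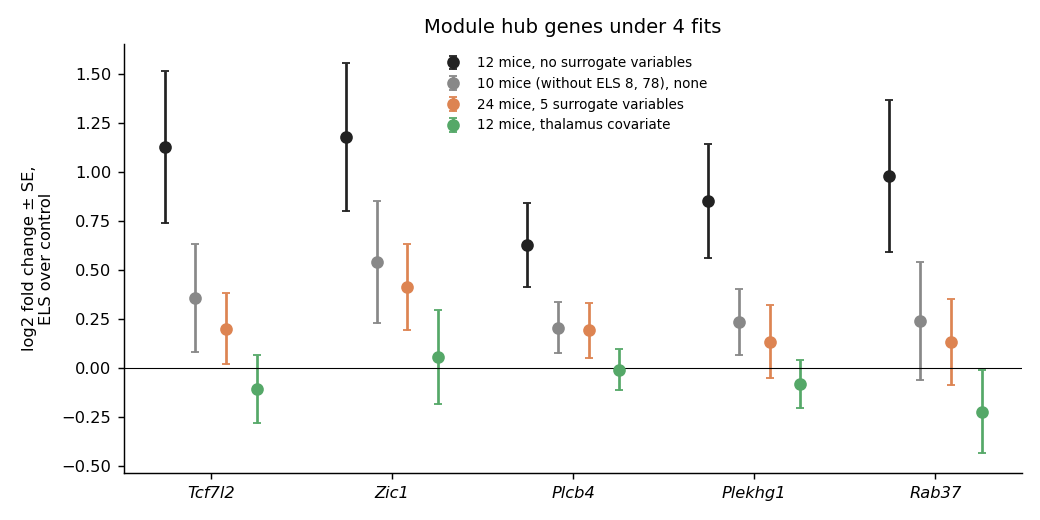
Log2 fold change of ELS over control Fkbp5lox/lox mice, with its SE as error bar, for the 5 hub genes under 4 fits: the 12 mice without surrogate variables (black), the same without ELS mice 8 and 78 (grey), 24 mice with 5 surrogate variables (orange), and the 12 mice with thalamic markers as covariate (green). The black values lie between 0.63 and 1.18 and the green ones between -0.22 and 0.058.

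Genes of the stress axis showed no difference that passed the test. *Fkbp5* was at 47.7 to 63.4 CPM in controls with a median of 52.0, and at 56.4 to 62.2 CPM with a median of 58.8 after ELS. Control mouse 34 lay within the ELS range, control mouse 50 above it, and the other 4 controls lay below all ELS mice. The mean was 53.5 ± 5.95 CPM in controls and 59.4 ± 2.29 CPM after ELS (SD, n = 6 each). The log2 fold change was 0.20 (SE 0.13, edgeR unadjusted p = 0.120) with surrogate variables and 0.15 (SE 0.065, edgeR unadjusted p = 0.038) without them, and neither passed the FDR. Short annotated genes overlap *Fkbp5* on both strands.

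*Nr3c1*, the glucocorticoid receptor, was at 75.8 to 103 CPM in controls and 70.6 to 99.4 CPM after ELS, a log2 fold change of -0.11 (SE 0.074). *Nr3c2*, the mineralocorticoid receptor, was at 184 to 228 CPM in controls and 181 to 242 CPM after ELS, a log2 fold change of 0.006 (SE 0.061) whose sign turned in several fits. *Crh*, corticotropin-releasing hormone, was near 1 CPM, with medians of 1.28 CPM in controls and 0.976 CPM after ELS. *Crhr1*, its main receptor, was at 8.44 to 11.6 CPM in controls and 5.13 to 11.1 CPM after ELS, a log2 fold change of -0.26 (SE 0.16). Of the 9 receptors, ligands and cofactors of this list 3 were higher and 6 lower, 0 at an unadjusted p under 0.05.

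Of 22 genes that glucocorticoids induce, 21 were tested. After ELS 13 were higher and 8 lower, against 51.2% and 48.8% of all genes, with a median log2 fold change of 0.050. In each direction 1 had an unadjusted p under 0.05, against 2.81% and 2.17% of all genes. *Hif3a*, a hypoxia pathway transcription factor, was at 2.16 to 4.84 CPM in controls and 2.74 to 5.24 CPM after ELS (log2 fold change 0.42, SE 0.18). *Pdk4*, a kinase that restrains pyruvate oxidation, was at 11.9 to 14.7 CPM in controls and 6.59 to 13.4 CPM after ELS (log2 fold change -0.30, SE 0.14), with 4 ELS mice below the lowest control. *Tsc22d3*, which encodes GILZ, had medians of 48.7 and 48.2 CPM, and *Sgk1*, a serum and glucocorticoid regulated kinase, had medians of 76.8 and 74.2 CPM, with log2 fold changes of -0.045 and 0.074.

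Synaptic lists held small values, and their counts above 0 were lower without surrogate variables. Of 15 ionotropic glutamate receptor subunits 11 were higher after ELS, 3 of them at an unadjusted p under 0.05, against 51.2% and 2.81% of all genes, with a median log2 fold change of 0.040. In the 12 mice without surrogate variables 9 of 15 were higher, 0 at an unadjusted p under 0.05, with a median of 0.019. *Grik5*, a kainate receptor subunit, was at 164 to 188 CPM in controls and 155.5 to 220 CPM after ELS (log2 fold change 0.16, SE 0.065), and *Gria1*, an AMPA receptor subunit, was at 994 to 1187 CPM in controls and 1070 to 1175 CPM after ELS (log2 fold change 0.018, SE 0.038). The ELS values of *Gria1* lay wholly within the control range, and those of *Grik5* reached past it on both sides. Of 20 spine scaffolds and plasticity kinases 17 were higher, against 51.2% of all genes, with a median of 0.027, and *Homer3* was the one at an unadjusted p under 0.05. Without surrogate variables 13 of the 20 were higher, 1 at an unadjusted p under 0.05, with a median of 0.050. *Camk2b*, a subunit of calcium/calmodulin-dependent kinase II, was at 1127 to 1527 CPM in controls and 1308 to 1673 CPM after ELS (log2 fold change 0.11, SE 0.056), and *Dlg4*, which encodes PSD-95, had medians of 497 and 503 CPM.

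GABA-A receptor subunits had 10 of 12 lower values, against 48.8% of all genes, 0 at an unadjusted p under 0.05, and a median of -0.030. Immediate early genes, which report recent neuronal activity, had 9 of 16 higher values, against 51.2% of all genes, and a median of 0.006. *Npas4* was the one at an unadjusted p under 0.05 (1.79 to 6.10 CPM in controls and 1.78 to 6.63 CPM after ELS, log2 fold change 0.54, SE 0.25). The *Npas4* groups covered almost the same range. Of 8 neurotrophins and receptors 7 were tested, 0 at an unadjusted p under 0.05, and *Ntrk2*, the receptor of BDNF, had medians of 534 and 521 CPM. DNA methylation enzymes and readers had 9 of 11 higher values, against 51.2% of all genes, 0 at an unadjusted p under 0.05, and a median of 0.047.

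Genes of cholesterol synthesis leaned higher after ELS, with 19 or 20 of 21 above 0 with and without surrogate variables and with ELS mice 8 and 78 or control mouse 44 left out. Neurons and glia make their cholesterol locally, through a chain of enzymes whose transcription is controlled together by the SREBP2 transcription factor. With surrogate variables 19 of 21 had higher values, 8 at an unadjusted p under 0.05 where 2.81% of all genes were higher at that p, and the median log2 fold change was 0.16. Without surrogate variables 19 of 21 were higher, 2 at an unadjusted p under 0.05, with a median of 0.11. Leaving out ELS mice 8 and 78 from that fit gave 19 of 21 higher, 10 at an unadjusted p under 0.05, with a median of 0.22. These 2 mice were among the lower ELS mice for this list, at 998.5 and 1072 CPM. Leaving them out therefore raises the difference and is no check of it. No member passed the FDR.

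The summed level was 1067 to 1296 CPM in controls, with control mouse 34 highest. ELS mice 56, 72 and 4 were at 1553, 1428 and 1220 CPM and the other 3 at 998.5 to 1084 CPM. The difference was thus carried by 2 or 3 ELS mice and the groups overlapped. The list was not counted with those mice left out. These 3 ELS mice were also the 3 highest of the ELS group for CA3 markers and for choroid plexus markers, and the part of either in the difference was not tested.

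*Hmgcs1*, which makes the precursor HMG-CoA, was at 231 to 317 CPM in controls with a median of 258, and at 218 to 382 CPM with a median of 269 after ELS (log2 fold change 0.17, SE 0.081, edgeR unadjusted p = 0.0527). *Fdft1*, which makes squalene, was at 80.3 to 104 CPM and 72.3 to 129 CPM (log2 fold change 0.23, SE 0.071, edgeR unadjusted p = 0.00383). For both genes ELS mouse 56 was highest and ELS mouse 8 lowest of the ELS group. *Fdft1* overlaps *Ctsb* on the opposite strand.

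Of genes chosen after their values were seen, *Sqle*, squalene epoxidase, had a log2 fold change of 0.22 (SE 0.079), *Nsdhl*, a sterol demethylation enzyme, 0.25 (SE 0.097) and *Lss*, lanosterol synthase, 0.15 (SE 0.067). *Fdps* had the highest log2 fold change of the list, 0.82, on 12 to 53 reads per mouse, and its pseudogenes could take or give reads.

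The promoters of *Hmgcs1*, *Lss* and *Nsdhl* are shown because genes of this list leaned higher together. Sequences are from RefSeq (GRCm38.p6), 250 bases before to 50 after the gene start, plus strand, 5′ to 3′. Capitals mark CCAAT on either strand, and in *Hmgcs1* also the letters CACCCCAC, the core of a sterol regulatory element, on either strand. The 2 motifs do not overlap in these windows.
Hmgcs1 promoter, chr13:119690101-119690400: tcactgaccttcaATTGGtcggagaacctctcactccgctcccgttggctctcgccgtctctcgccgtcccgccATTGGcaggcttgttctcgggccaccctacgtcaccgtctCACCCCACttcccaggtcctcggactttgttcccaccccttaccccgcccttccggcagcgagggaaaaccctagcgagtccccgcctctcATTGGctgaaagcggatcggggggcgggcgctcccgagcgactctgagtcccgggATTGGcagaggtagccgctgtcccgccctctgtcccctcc
Lss promoter, chr10:76531355-76531654: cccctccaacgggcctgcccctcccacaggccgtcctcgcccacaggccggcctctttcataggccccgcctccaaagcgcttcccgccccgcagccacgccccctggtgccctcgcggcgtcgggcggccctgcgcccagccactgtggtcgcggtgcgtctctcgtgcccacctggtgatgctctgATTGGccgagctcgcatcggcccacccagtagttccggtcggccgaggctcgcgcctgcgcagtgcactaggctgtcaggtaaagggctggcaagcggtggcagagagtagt
Nsdhl promoter, chrX:72918271-72918570: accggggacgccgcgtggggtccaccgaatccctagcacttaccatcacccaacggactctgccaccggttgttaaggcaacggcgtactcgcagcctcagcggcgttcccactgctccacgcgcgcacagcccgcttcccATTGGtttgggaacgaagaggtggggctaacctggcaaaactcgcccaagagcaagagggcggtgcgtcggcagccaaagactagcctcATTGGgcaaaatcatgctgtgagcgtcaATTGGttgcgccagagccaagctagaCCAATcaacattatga

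A window was found for 15 of the 21 genes, and 15 of 15 held CCAAT, a box bound by the factor NF-Y, against 41.1% of 27025 genes with a window. CACCCCAC was found in 1 of 15 (*Hmgcs1*), against 3.3% of genes. Of the other spellings searched, TCACCCCAC was found in 1 of 15 (0.614% of genes), TCACNCCAC in 1 (1.44%) and TCACCNCAC in 2 (1.51%). A match is a description of letters and not a bound site.

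Ribosomal protein genes leaned the other way. Of 77 tested genes of cytosolic ribosomal proteins 74 were lower after ELS, 7 of them at an unadjusted p under 0.05 where 2.17% of all genes were, with a median log2 fold change of -0.092. Without surrogate variables 75 of 77 were lower with a median of -0.076, and 76 of 77 with a median of -0.11 when ELS mice 8 and 78 were also left out. The summed level was 10280 to 12640 CPM in controls and 9794 to 11220 CPM after ELS, so the groups overlapped. ELS mice 8 and 78 were among the higher of the ELS group, at 11220 and 11020 CPM. *Rpl10* was at 203 to 248 CPM in controls and 186.5 to 222 CPM after ELS (log2 fold change -0.12, SE 0.056). *Rpl21* was at 54.7 to 85.3 CPM and 43.2 to 66.6 CPM (log2 fold change -0.48, SE 0.17). Many ribosomal protein genes have pseudogenes with near-identical sequence, and their values are uncertain where counting could split reads.

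Nuclear-encoded subunits of oxidative phosphorylation were lower for 63 of 75, against 48.8% of all genes, with a median of -0.048. At an unadjusted p under 0.05, 2 of the 75 were lower in this fit, near the 2.17% of all genes. That count changed with the fit. It was 1 in the 12 mice without surrogate variables, where 260 of all 16209 genes were lower at that p. With surrogate variables estimated from these 12 mice it was 11, against 428 of all genes. In the 11 mice without control mouse 44 and without surrogate variables it was 13, against 384 of all genes. The summed level of these subunits was 8945 to 10980 CPM in controls and 8821 to 10220 CPM after ELS. Mitochondrial transcripts took 5.12% to 6.89% of counts in controls and 5.55% to 6.22% after ELS (exact two-sided permutation test, p = 0.115, n = 6 and 6). The shortest genes leaned the same way as these lists, by a smaller amount. The 3231 shortest genes by exonic length had a median log2 fold change of -0.015 and the 3231 longest 0.010. In the 12 mice without surrogate variables these medians were -0.02 and -0.002. Ribosomal genes had a median exonic length of 1781 bases, against 4198 over all genes, and the part of transcript length in their difference was not tested.

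**Figure D5:**
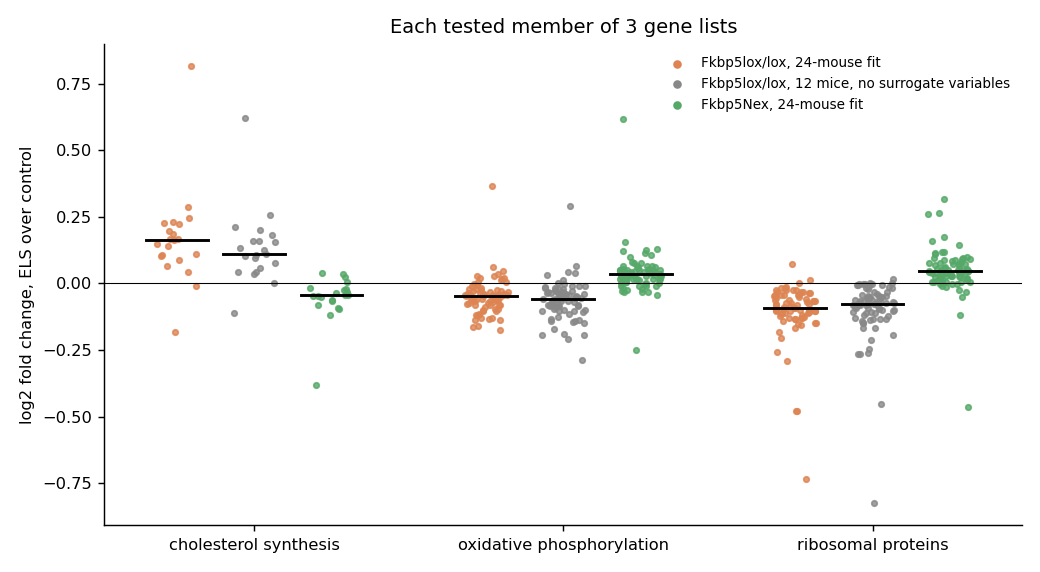
Log2 fold change of ELS over control for each tested gene of 3 lists, in Fkbp5lox/lox mice in the 24-mouse fit (orange) and in the 12 mice without surrogate variables (grey), and in Fkbp5Nex mice in the 24-mouse fit (green), with black bars at the medians. Cholesterol genes have medians of 0.16, 0.11 and -0.045 and ribosomal genes of -0.092, -0.076 and 0.045, of which the last is -0.067 without surrogate variables.

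ELS in Fkbp5Nex mice, which share no animals with this comparison, also gave 0 of 16209 genes past the FDR in edgeR's test and 447 (2.76%) at an unadjusted p under 0.05, 1.55% of genes higher and 1.2% lower. DESeq2 also called 0 there. The test of the difference between the 2 ELS effects gave 0 genes, a smallest adjusted p of 0.999 and 641 genes (3.95%) at an unadjusted p under 0.05, so no gene was shown to differ in its response between the genotypes in this fit. Of the 807 genes at an unadjusted p under 0.05 in Fkbp5lox/lox mice, 416 (51.5%) had the same direction in Fkbp5Nex mice, against 51.0% of all tested genes. With surrogate variables *Bok* had a log2 fold change of 0.078 and *Homer3* of 0.10 in Fkbp5Nex mice, and *Fbxo30* of -0.002, and without them *Bok* was at -0.048. *Pcdha6* was lower in both, by -0.57 and -0.49, and *Scml4* had opposite signs, 0.57 and -0.23.

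For the gene lists, the values of Fkbp5Nex mice depended on control mouse 52 of that genotype and on the surrogate variables. That mouse stood apart, with cholesterol genes at 1876 CPM against 1094 to 1259 CPM in the other 5 Fkbp5Nex controls and 1017 to 1242 CPM in the Fkbp5Nex ELS mice. Its ribosomal genes were at 15180 CPM, against 9119 to 11780 CPM and 10200 to 11860 CPM in the same groups. Without it the test of the difference called 1 gene at the FDR, *Mfap1b* (log2 difference 0.82, SE 0.12, edgeR adjusted p = 0.017), in the fit with surrogate variables and 0 without them. *Mfap1b* has a near-identical copy, *Mfap1a*, so its count is uncertain.

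With surrogate variables ribosomal genes were higher for 67 of 77 in Fkbp5Nex mice, against 52.0% of all genes, with a median of 0.045. Without surrogate variables 5 of 77 were higher, against 47.9% of all genes, with a median of -0.067. When mouse 52 was left out as well, 69 of 77 were higher with a median of 0.038. The difference between the 2 ELS effects was below 0 for 75 of 77 ribosomal genes with surrogate variables, against 49.9% of all genes, 12 at an unadjusted p under 0.05 where 2.01% of all genes were, with a median of -0.14. Leaving out mouse 52 from that fit gave 75 of 77 and 5 at that p. It was below 0 for 41 of 77 with a median of -0.006 without surrogate variables, and for 74 of 77 with a median of -0.11 when mouse 52 was also left out. The direction of the ribosomal list in Fkbp5Nex mice thus changed with the fit. The size of its difference from Fkbp5lox/lox mice changed too, with medians below 0 that ran from -0.14 to -0.006.

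Cholesterol genes were lower for 17 of 21 in Fkbp5Nex mice with surrogate variables, against 48.0% of all genes, with a median of -0.045, and for 21 of 21 without them, with a median of -0.16. Without mouse 52 these became 14 of 21 with a median of -0.012 and 12 of 21 with a median of -0.023. The difference between the 2 ELS effects was above 0 for 20 of 21 genes with surrogate variables, against 50.1% of all genes, 5 at an unadjusted p under 0.05 where 1.95% of all genes were, and for 21 of 21 without them, 3 at that p. Without mouse 52 the counts were 20 and 18 of 21, with medians of 0.13 and 0.11, and 5 and 1 at that p. Choroid plexus markers of Fkbp5Nex mice also turned, from a median of 0.92 with surrogate variables to -0.50 without them.

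ELS mice did not differ more among themselves than controls did. The median over genes of the absolute difference of log2 CPM to the median of the other mice of the group was 0.123 ± 0.019 in controls and 0.125 ± 0.015 in ELS mice (SD, n = 6 each, exact two-sided permutation test, p = 0.829). It was highest in control mouse 44 (0.155) and ELS mouse 8 (0.146), the 2 punches that stood apart in CA1. The SD across mice was larger in the ELS group for 50.0% of genes.

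The main axes of variation had marker genes of regions and cell types at their ends. The first principal component held 28.1% of the variance, with *Ttr* and *Clic6* of the choroid plexus at one end and the dentate genes *Tdo2* and *Dsp* at the other. The second held 16.98%, with the CA1 and ventral genes *Fibcd1*, *Dlk1* and *Dcn* opposite *Tnnt1*, *Prkcd*, *Slc17a6* and *Tcf7l2*. The third held 10.5%. None separated the rearing conditions (exact two-sided permutation tests, p = 0.407, 0.533 and 0.320, each 0.533 after Benjamini-Hochberg adjustment over 3, n = 6 and 6). With 6 mice against 6 there are 924 divisions and the smallest p such a test can give is 0.00216.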

How the data were processed

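Hippocampal mRNA libraries of 24 mice were analysed, of which 12 form the comparison reported. The counts deposited by the authors are raw reads per gene, made with HISAT2 2.0.5 and featureCounts 1.5.0-p3 per the submitters' processing notes, after removal of adaptor, poly-N and low-quality reads. Genome build, annotation, strand and handling of multi-mapped reads are not given in the sources used here. Fold changes and p-values of the authors were not used. The study removed 1 outlying sample from a larger set that included another experiment, and all 24 were kept here. Groups came from the sample labels. Total counts ran from 18347283 to 26555623 over the 12 mice, and a gene near the filter of 10 reads carries large counting error. Replicates of a group differed far beyond sampling noise (mean chi-square per gene at least 7.34, where 1 is Poisson sampling), so none was counted as a duplicate.

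A gene was tested if some group had no mouse below 10 reads for it (16209 of 46983 genes). Counts were scaled by TMM, surrogate variables came from svaseq (sva 3.50.0; 5 by num.sv, method be), and contrasts were tested with the quasi-likelihood test of edgeR 4.0.16 in R 4.3.3, with Benjamini-Hochberg adjustment and an FDR of 0.02. DESeq2 1.42.0 served as an alternative test. CPM are TMM-normalized, log2 CPM used a pseudocount of 0.5, and each SE is the absolute log2 fold change over the square root of F. Single values were compared by exact permutation in scipy 1.17.1. The tests were tried on simulated data. Positions and lengths are from GENCODE vM21 (GRCm38) by Ensembl identifier.

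Named genes were the 10 higher and 10 lower genes with the smallest p in the fit of 24 mice (mean of at least 1 CPM), the 6 each way in the fit of the 12 mice without surrogate variables, the first 2 and the 2 smallest-p members of each list, all members of the hub and stress lists, and *Tcf4*, *Slc17a6* and *Foxp2*. The comparison, gene lists and rules were chosen with earlier results of these data known. Lists are described by counts and medians, and some genes that the rules name are not reported here. Alternatives were no surrogate variables, the 12 mice alone with or without their own 2 surrogate variables or a thalamic covariate, other size factors, filters and thresholds, DESeq2, each mouse left out, and, chosen after seeing the data, leaving out ELS mice 8 and 78, control mouse 44 without surrogate variables, or control mouse 52 of the Fkbp5Nex group.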

Additional observations from a re-analysis of the deposited data

Results flagged for a closer look

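A value is given here when 1 mouse of a group of 6 lay farther from the rest than Dixon's 95% critical value (a gap over 0.625 of the group's range). Of 212 group values examined 16 (7.55%) exceeded it, and chance alone flags about 1 in 20 groups. Control mouse 44 accounted for 7: CA1 markers (846 CPM), CA3 markers (205.5 CPM), neuropeptides (601.4 CPM), DNA methylation genes (601.6 CPM), *Zfp932* (58.0 CPM), *Marcksl1* (92.8 CPM) and *Ntrk2* (627 CPM). ELS mouse 8 was high for dentate markers (1476 CPM) and *Plk5* (48.4 CPM), and ELS mouse 78 for *Tsc22d3* (60.1 CPM).

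Control mouse 30 was high for habenula markers (15.4 CPM) and total counts (24.05, in units of 1000000 reads), control mouse 74 for striatal markers (138 CPM) and control mouse 34 for cholesterol genes (1296 CPM). Control mouse 50 was low for microglial markers (322 CPM) and ELS mouse 4 for astrocyte markers (4213 CPM). The part of these mice in any gene's difference was not tested, other than by leaving each out in turn.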

How the results depend on the processing

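No paired analysis was possible because the rearing groups share no mouse numbers. The count of 0 genes past the FDR for ELS in Fkbp5lox/lox mice held under each alternative except DESeq2, which called 1 gene, *Bok* (log2 fold change 0.37). Leaving out each of the 12 mice in turn gave 0 genes throughout. The number at an unadjusted p under 0.05, 807, was 448 without surrogate variables, 1837 of 32020 genes without a filter on low counts, which tests more genes, and 601 to 1151 when each mouse was left out. For ELS in Fkbp5Nex mice the count of 0 became 1 without ELS mouse 68 of the Fkbp5lox/lox group and was 0 without each other mouse. The count for the difference between genotypes was 1 without control mouse 52 of the Fkbp5Nex group (1 gene, *Mfap1b*) and 0 in every other fit.

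Of 1675 values of 67 named genes under alternatives 1622 kept their direction and side of the threshold. Without surrogate variables, in 24 mice, in the 12 mice, in 11 without control mouse 44 and in 23 without Fkbp5Nex control 52, the log2 fold change turned for *Igsf1* (0.075, 0.074, 0.111 and 0.076), *Marcksl1* (0.053, 0.052, 0.162 and 0.054), *Sgk1* (-0.054, -0.055, -0.134 and -0.054), *Npnt* (0.301, 0.301, 0.477 and 0.302), *Plk5* (0.189, 0.188, 0.211 and 0.189) and *Nr3c2* (-0.041, -0.043, -0.068 and -0.041). *Tsc22d3* turned in 3 of these (0.026, 0.025 and, without Fkbp5Nex control 52, 0.026) and *Grik4* in the 11 mice (-0.004). *Nr3c2* was also -0.001 without a filter and -0.010 with the 12 mice's own surrogate variables. With the thalamic covariate *Tcf7l2* (-0.106), *Plcb4* (-0.008), *Plekhg1* (-0.082), *Rab37* (-0.224) and *Crh* (0.180) turned. *Dlg4* was -0.022 without ELS mice 8 and 78. Over single mice left out, values straddled 0 for *Tcf4* (-0.054 to 0.024), *Tsc22d3* (-0.124 to 0.002), *Ntrk2* (-0.042 to 0.016), *Gria1* (-0.006 to 0.036), *Dlg4* (-0.052 to 0.084) and *Nr3c2* (-0.081 to 0.044). The cause of these turns was not tested. The test of the principal components on 500 genes, and of the deviation of single mice on genes of at least 1 CPM and on vst values, passed no threshold either. The median SE was 0.083, and log2 fold changes well above it did not pass the FDR in edgeR's test. *Bok* at 0.37 (SE 0.071) had an edgeR adjusted p of 0.545, and *Homer3* at 0.49 (SE 0.11) one of 0.938. Differences of this size in single genes could thus go uncalled in edgeR's test.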
